A study of Mus musculus with 8 samples.

Results

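The interferon regulatory factor (Irf) genes encode transcription factors that share a DNA-binding domain and bind the interferon-stimulated response element, a short promoter sequence of interferon-regulated genes. Irf3 and Irf7 are activated by kinases downstream of nucleic acid sensors and switch on interferon genes, Irf9 is the DNA-binding part of the factor that answers type I interferon, and Irf1 activates and Irf2 mostly represses the same promoters. Irf4 and Irf8 act chiefly in blood cell lineages, and Irf5 in the inflammatory response of macrophages and other immune cells. The 8 members described here (Irf1, Irf2, Irf3, Irf4, Irf5, Irf7, Irf8 and Irf9) were chosen by gene name from the 47434 genes of the table, with earlier results of these data known.

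RNA was measured in Hepa 1-6, a cell line from a mouse liver tumor, in 4 libraries labelled as a knockout of G9a and 4 labelled WT, with no treatment named. G9a, encoded by Ehmt2, is an enzyme that places methyl marks on histone H3. Whether each library is a culture or clone of its own is not in the labels, and the p-values below therefore reflect only how far these 8 samples vary, part of which may be technical. Library totals lay between 58256100 and 75025236 counts. Ehmt2 RNA fell in the knockout, to 116.7 to 119.8 CPM (counts per 1000000, scaled by TMM) from 297.6 to 345.4 CPM in the wild type, which is the check of the labels. Of 10 hepatocyte markers none had enough counts to be tested and 6, among them Alb and Hnf4a, had 0 counts in all libraries, so the labelled tissue, liver, is not visible in these defining genes. Over all genes 7476 of 15840 tested passed an adjusted p under 0.05 (edgeR, 47.2%), 3742 higher and 3734 lower in the knockout (4543 and 2742 when scaled by library size only).

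The promoters of 4 members are shown because these genes either hold letters of a known interferon-responsive element or, for Irf7, showed the largest fold change of the family. Each line gives 300 bases, 250 before and 50 from the RefSeq start, 5′ to 3′ on the gene's strand, from RefSeq on GRCm38.p6. Capitals mark matches to the core of the interferon-stimulated response element (GAAA, any 2 bases, GAAA), to the gamma-activated sequence that binds STAT dimers (TTC, any 3 bases, GAA) or to an NF-kB site (GGG, any 2 bases, TTTCC). Both strands were searched, and no matches overlapped. Only these letters were searched, so other forms of the same sites are not marked. The Irf1 window is chr11:53769764-53770063 (plus strand), Irf2 chr8:46739495-46739794 (plus), Irf8 chr8:120736108-120736407 (plus) and Irf7 chr7:141266375-141266674 (minus).
Irf1: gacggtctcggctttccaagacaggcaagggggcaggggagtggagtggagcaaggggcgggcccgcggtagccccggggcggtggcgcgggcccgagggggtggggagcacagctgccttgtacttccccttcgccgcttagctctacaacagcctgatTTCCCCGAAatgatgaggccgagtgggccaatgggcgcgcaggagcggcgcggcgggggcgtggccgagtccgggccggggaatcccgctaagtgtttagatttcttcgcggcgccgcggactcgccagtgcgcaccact
Irf2: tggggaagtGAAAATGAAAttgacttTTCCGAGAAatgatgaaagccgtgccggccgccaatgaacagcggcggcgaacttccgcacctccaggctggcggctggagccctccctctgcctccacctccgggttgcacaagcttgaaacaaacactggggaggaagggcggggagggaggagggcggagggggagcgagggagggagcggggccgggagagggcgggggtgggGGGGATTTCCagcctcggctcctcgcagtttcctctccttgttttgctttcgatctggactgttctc
Irf8: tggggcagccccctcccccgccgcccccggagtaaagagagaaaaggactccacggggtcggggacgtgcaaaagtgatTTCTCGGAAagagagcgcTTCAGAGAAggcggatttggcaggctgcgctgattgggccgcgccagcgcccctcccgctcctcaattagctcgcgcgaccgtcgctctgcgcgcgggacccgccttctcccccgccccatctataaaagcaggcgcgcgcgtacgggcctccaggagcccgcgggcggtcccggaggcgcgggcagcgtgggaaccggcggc
Irf7: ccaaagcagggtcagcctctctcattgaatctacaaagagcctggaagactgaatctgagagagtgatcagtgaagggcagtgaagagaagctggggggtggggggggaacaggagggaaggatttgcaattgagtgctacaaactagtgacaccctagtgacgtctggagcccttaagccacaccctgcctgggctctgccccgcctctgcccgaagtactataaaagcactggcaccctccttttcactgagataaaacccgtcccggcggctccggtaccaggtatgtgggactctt

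In the Irf1 window the match TTCCCCGAA, a gamma-activated sequence, lies at -90 to -82 from the start. The Irf8 window held a pair of them, TTCTCGGAA at -171 to -163 and TTCAGAGAA at -153 to -145. Irf2 held all 3 kinds of match, with the response element core GAAAATGAAA at -241 to -232. Of 32851 promoters in the table, 8.3% held the gamma-activated sequence, 3.44% the response element core and 1.63% the NF-kB letters. All 8 members had a promoter there, 11 windows in all, and the windows of Irf3, Irf4, Irf5, Irf7 and Irf9 held none of the 3 sets of letters. The first windows of Irf1, Irf5 and Irf8 were rich in CpG pairs (32, 35 and 38 against a median of 7 over all promoters), and that of Irf7 held 7.

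Levels can be compared between genes only per length, for which counts were divided by transcript length and scaled to the same total in each library (TPM). In the wild type Irf3 was highest at 62.0 ± 7.71 TPM (SD, n = 4), followed by Irf8 at 36.5 ± 3.15 TPM. Irf2 (18.7 ± 1.54 TPM) and Irf1 (16.4 ± 0.391 TPM) came next, and their wild-type libraries overlapped. Irf9 (5.5 ± 0.93 TPM) and Irf5 (3.75 ± 0.189 TPM) were lower, and Irf7 was at 0.404 ± 0.331 TPM (0.233 TPM with the length of its longest transcript). Irf4 was at 0.00585 ± 0.0117 TPM. In the knockout the order of Irf3 (55.9 ± 2.01 TPM) and Irf8 (28.4 ± 2.02 TPM) was the same, while Irf1 and Irf2 again overlapped, at 21.6 ± 0.964 and 21.2 ± 2.87 TPM. The position of Irf1 and Irf2 depended on the length used: with the longest transcript of each gene, Irf1 was above Irf2 in both groups (18.5 against 13.3 TPM in the wild type and 24.2 against 15.2 TPM in the knockout).

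**Figure D1:**
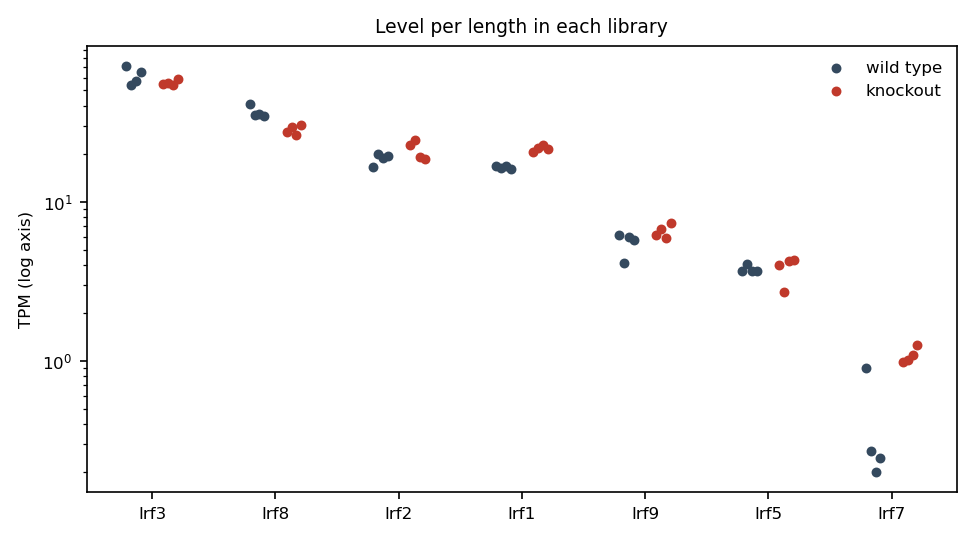
Level per length (TPM, log axis) of 7 members in each of 4 wild-type and 4 knockout libraries; Irf4, at or near 0, is left out. Irf3 and Irf8 lead in both groups, and 1 wild-type library of Irf7 lies well above the other 3.

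Of the 8 members 7 had enough counts to be tested, and 4 of these passed an adjusted p under 0.05: Irf1 and Irf7 rose, and Irf3 and Irf8 fell. The count of 4 in 7 stands beside 47.2% of all tested genes. In the same 4 members the knockout and wild-type libraries did not overlap, which held for 43.9% of all tested genes. The median size of the log2 fold change was 0.28 over the 7 members and 0.29 over all tested genes. Both the share of members called and the size of their changes were near those of all genes.

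**Figure D2:**
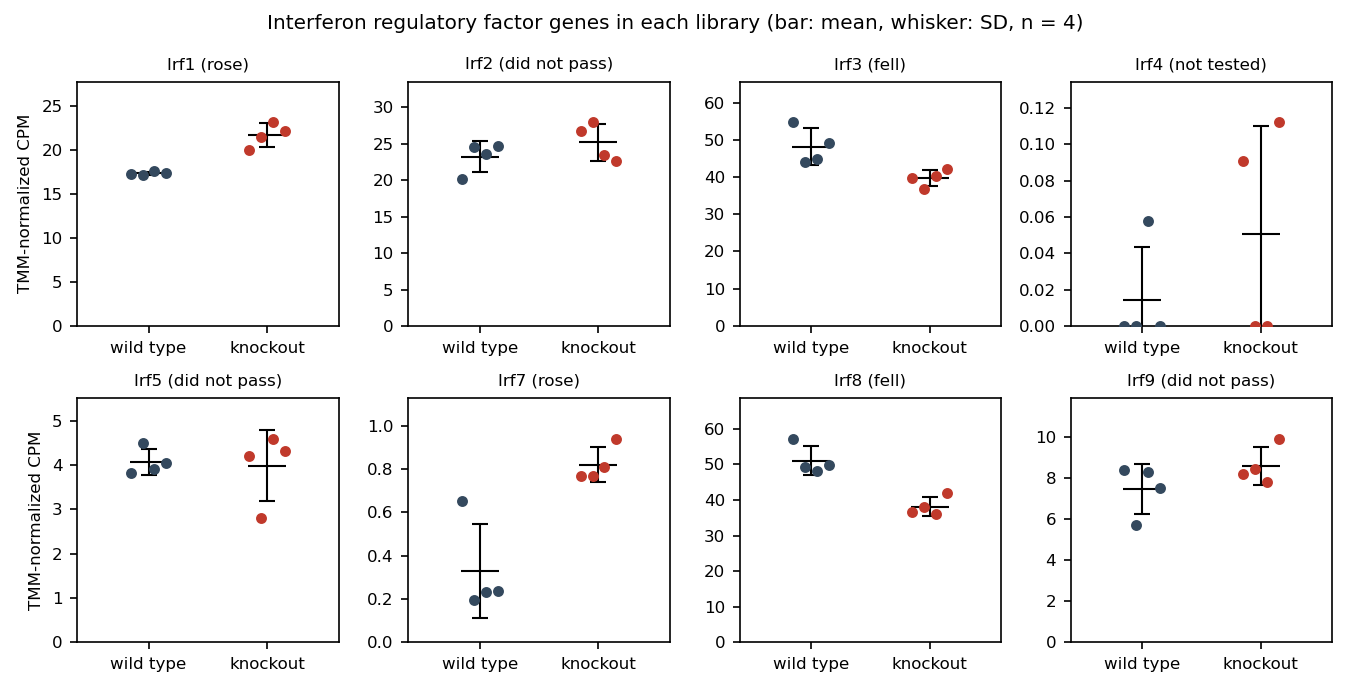
TMM-normalized CPM of the 8 members in each library, with mean and SD (n = 4 per group), each panel with an axis from 0. The groups separate for Irf1, Irf3, Irf7 and Irf8 and overlap for the others.

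Irf1 (ENSMUSG00000018899, chromosome 11, 53770014 to 53778374, GRCm38), the activator of antigen presentation and interferon-gamma response genes, rose by 1.25-fold. The knockout libraries held 19.9, 21.5, 23.1 and 22.1 CPM, and the wild-type libraries 17.2, 17.2, 17.6 and 17.4 CPM. All knockout libraries lay above all wild-type libraries, which were close together. With 4 libraries a group, edgeR gave a log2 fold change of 0.32 ± 0.07 (SE; adjusted p = 0.0013). Of its 10 annotated transcripts one, Irf1-202, held 95.7% ± 2.21 of the gene's counts in the knockout and 92.6% ± 3.80 in the wild type. Tested as a transcript, Irf1-202 also rose (log2 fold change 0.40 ± 0.08, adjusted p = 0.0194), a call that was lost without knockout replicate 3 or 4 or wild-type replicate 2, 3 or 4 (adjusted p from 0.057 to 0.063).

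Irf2 (ENSMUSG00000031627, chromosome 8, 46739732 to 46847458), which competes with Irf1 for the same sites, did not pass the test. The knockout libraries were at 26.8, 28.0, 23.5 and 22.7 CPM and the wild-type libraries at 20.1, 24.6, 23.6 and 24.7 CPM, so the groups overlapped. The log2 fold change was 0.12 ± 0.09 (adjusted p = 0.295), with a 95% interval from -0.07 to 0.31, or 0.953 to 1.24-fold. Within a library the ratio of Irf1 to Irf2 counts, which does not depend on the scaling, was 0.869 ± 0.13 in the knockout and 0.751 ± 0.0729 in the wild type. This difference was within the spread of the libraries (exact permutation test, two-sided, p = 0.2; adjusted over 3 ratios, 0.257).

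Irf3 (ENSMUSG00000003184, chromosome 7, 44997648 to 45002848), the factor that is present before infection and activated by TBK1, fell. Its levels were 39.7, 36.8, 40.4 and 42.1 CPM in the knockout and 54.7, 44.1, 44.8 and 49.0 CPM in the wild type. On this scale the highest knockout library lay just under the lowest wild-type library. Per length the groups overlapped, at 54.25 to 58.82 TPM in the knockout and 54.15 to 71.36 TPM in the wild type. The log2 fold change was -0.28 ± 0.07 (adjusted p = 0.00655), or 0.826-fold. Irf3 overlaps Bcl2l12 on the other strand over 1065 bases, and Bcl2l12 did not pass (log2 fold change -0.03, adjusted p = 0.803). Use of strand in the counting is not given in the sources used here, so reads of the overlap cannot be told apart.

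Counts of Irf3 were spread over 13 transcripts, 11 of which were tested and none of which passed. Irf3-201 took 39.9% ± 4.22 of the counts in the knockout and 37.8% ± 2.98 in the wild type, and Irf3-213 took 31.7% ± 5.31 and 40.6% ± 5.61. The level of Irf3-213 was 12.7 ± 1.84 against 19.5 ± 3.86 CPM (log2 fold change -0.62 ± 0.18, adjusted p = 0.0646). Transcripts annotated as retaining an intron held 16.6% ± 3.30 and 14.7% ± 3.66 of the Irf3 counts, a difference smaller than either SD. In Irf1, Irf2 and Irf8 such transcripts held at most 2.71% in any library, and in Irf9 12.3% ± 8.49 and 14.9% ± 5.97.

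Irf7 (ENSMUSG00000025498, chromosome 7, 141262706 to 141266481), the interferon-induced factor that amplifies interferon production, showed the largest fold change and the lowest level of the tested members. It was at 0.767, 0.765, 0.807 and 0.939 CPM in the knockout, from 48 to 67 counts a library. The wild-type libraries were at 0.653, 0.197, 0.232 and 0.238 CPM, from 13 to 40 counts. The groups did not overlap, but wild-type replicate 1 lay close to the knockout. The log2 fold change was 1.31 ± 0.41 (adjusted p = 0.0171), with a 95% interval of 1.35 to 4.59-fold. Without wild-type replicate 1 it was 1.87 (adjusted p = 0.000832). The ratio of Irf7 to Irf3 counts was 0.0206 ± 0.00129 in the knockout and 0.0066 ± 0.00356 in the wild type, higher in 4 of 4 knockout libraries. A two-sided exact permutation test gave p = 0.0286, which no arrangement of 4 against 4 can go below, and 0.0858 after adjustment over 3 ratios. Irf7 overlaps Phrf1 by 45 bases on the other strand. Phrf1 held 66543 counts over all libraries, against 227 in the knockout and 84 in the wild type for Irf7, and did not pass (adjusted p = 0.246). Reads of this overlap cannot be told apart. Irf7 counts were too few to follow transcripts: Irf7-203, of 11 the one tested, was at 0 in 3 of 8 libraries.

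Irf9 (ENSMUSG00000002325, chromosome 14, 55603571 to 55610030), the subunit that brings the interferon-activated complex to DNA, did not pass. Its levels were 8.21, 8.43, 7.79 and 9.91 CPM in the knockout and 8.37, 5.71, 8.28 and 7.52 CPM in the wild type. Wild-type replicates 1 and 3 lay within the knockout range and replicates 2 and 4 below it. The log2 fold change was 0.20 ± 0.13 (adjusted p = 0.225), with a 95% interval of 0.948 to 1.4-fold. Stat2, whose product binds IRF9, was at 5.79 ± 0.761 against 4.63 ± 0.444 CPM and missed the threshold (adjusted p = 0.0528). Irf9 overlaps the end of Rnf31 on the same strand by 123 bases, and Rnf31 fell (log2 fold change -0.17, adjusted p = 0.0396).

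Irf8 (ENSMUSG00000041515, chromosome 8, 120736358 to 120756694), a factor best known for directing monocyte and dendritic cell development, was well expressed in these tumor cells and fell in the knockout. Its levels were 36.5, 38.1, 36.1 and 42.0 CPM in the knockout and 57.2, 49.2, 48.2 and 49.8 CPM in the wild type. The groups did not overlap. The log2 fold change was -0.42 ± 0.07 (adjusted p = 0.000228), or 0.747-fold, and its 95% interval ran from -0.57 to -0.27 on the log2 scale. Mean CPM was higher than that of 69.5% of the tested genes. The transcript Irf8-201 held 97.3% ± 1.19 and 95.6% ± 2.71 of the counts and fell as well (log2 fold change -0.36 ± 0.08, adjusted p = 0.0246), a call lost without knockout replicate 1, 2 or 3 or wild-type replicate 3 or 4 (adjusted p from 0.0504 to 0.0781). Of all 61 annotated transcripts of the family 25 were tested, and Irf1-202 and Irf8-201 were the 2 that passed, against 11.3% of all transcripts tested (6.25% higher and 5.02% lower).

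Blood cell markers were listed because Irf8 and Irf4 are active in those cells. Spi1, the partner that Irf8 and Irf4 need on many myeloid and B cell sites, had 0 counts in all 8 libraries, as did Adgre1, Itgam and Clec4f. Of 9 macrophage and myeloid markers 4 were tested: Ptprc rose from 0.437 ± 0.0459 to 1.08 ± 0.077 CPM and Cd14 fell from 12.1 ± 1.13 to 8.39 ± 1.26 CPM. Csf1r (0.715 ± 0.411 against 1.38 ± 0.787 CPM) and Cd68 (6.7 ± 0.43 against 5.4 ± 0.97 CPM) did not pass. Over all tested genes 23.6% rose and 23.6% fell. The summed level of the 9 was 15 to 19.2 CPM in the knockout and 18 to 20.8 CPM in the wild type. Among 6 dendritic cell markers 3 were tested, and all 3 were called, beside 47.2% of all tested genes. Flt3 fell (1.61 ± 0.703 against 3.25 ± 0.329 CPM), Clec9a rose (1.38 ± 0.272 against 0.165 ± 0.163 CPM) and Zbtb46 rose (5.7 ± 0.521 against 2.42 ± 0.588 CPM), for a sum of 7.97 to 9.72 CPM against 4.84 to 6.68 CPM. Of 6 B cell markers 4 were at 0 in all libraries, and of 8 T and NK cell markers 5 were. The part of these genes in the Irf8 result was not tested. In bulk RNA fewer cells of a type and less RNA per cell cannot be told apart.

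Irf4 (ENSMUSG00000021356, chromosome 13, 30749226 to 30766976), a factor of lymphocytes, was close to absent. It had 7, 0, 0 and 8 counts in the knockout libraries and 0, 0, 4 and 0 in the wild type, and did not enter the test. A count of 0 allows up to 3 counts, which is 0.04 to 0.0515 CPM depending on the library. Irf5 (ENSMUSG00000029771, chromosome 6, 29526625 to 29541871) had 4.2, 2.8, 4.59 and 4.32 CPM in the knockout and 3.82, 4.49, 3.91 and 4.03 CPM in the wild type. The wild-type range lay inside that of the knockout. Its log2 fold change was -0.03 ± 0.16 (adjusted p = 0.891), with a 95% interval of 0.772 to 1.24-fold, and the sign turned with library sizes alone (0.05) or upper-quartile scaling (0.03), and without knockout replicate 2 (0.11) or wild-type replicate 2 (0.02). The ratio of Irf5 to Irf3 counts was 0.0995 ± 0.0163 against 0.0853 ± 0.0133 (exact permutation test, two-sided, p = 0.257; adjusted over 3 ratios, 0.257). Irf5 overlaps Tnpo3 on the other strand by 1045 bases. Tnpo3 held 86885 counts over all libraries, against 1098 in the knockout and 1055 in the wild type for Irf5, and did not pass (adjusted p = 0.11). Reads of the overlap cannot be told apart here.

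**Figure D3:**
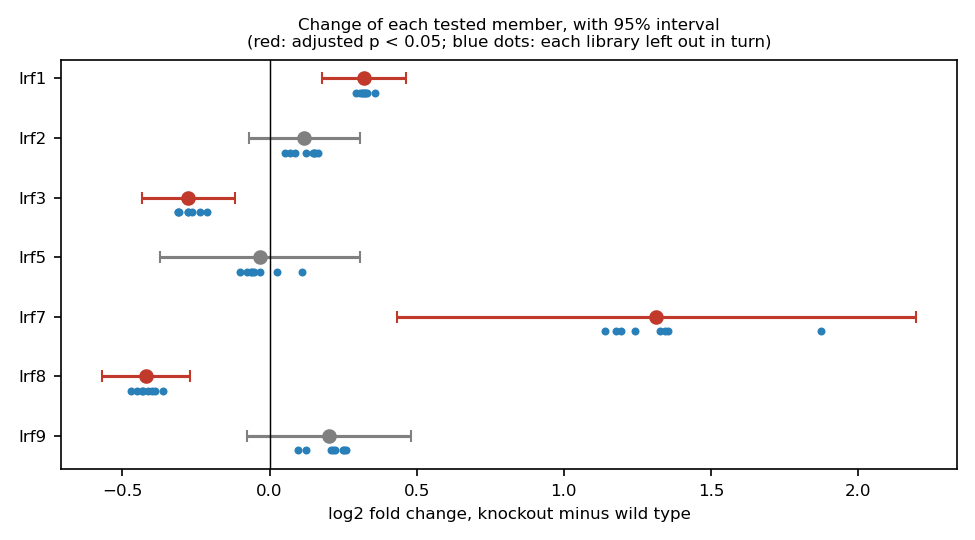
Log2 fold change (knockout minus wild type) of the 7 tested members with 95% intervals, red where the adjusted p was under 0.05. Blue dots show the value with each of the 8 libraries left out in turn; the sign was kept except for Irf5.

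Across the called members the value stayed on its side of the threshold in all 8 fits that left out a library. Irf1 lay between 0.293 and 0.358, Irf3 between -0.312 and -0.211, Irf8 between -0.471 and -0.363 and Irf7 between 1.14 and 1.87 (highest adjusted p 0.0472). None of the 4 passed a test against a 1.5-fold change, with an adjusted p of 0.147 for Irf7 and 1 for the others.

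Interferon ligands and genes upstream of the family were listed next. The ligands, some of which Irf3 and Irf7 induce, were near the floor: 16 of 21 had 0 counts in all 8 libraries. Ifnz, the one tested, did not pass (0.148 ± 0.0849 against 0.149 ± 0.0695 CPM, adjusted p = 0.986). Among sensors, adaptors and kinases that lead to IRF activation, 6 of 21 tested rose and 6 fell (23.6% of all tested genes did so in each direction), and the median log2 fold change was -0.01 against 0.00 over all tested genes. The RNA sensor Ddx58 (RIG-I) rose from 19.7 ± 1.05 to 36.7 ± 2.48 CPM and Tlr3 from 1.31 ± 0.249 to 5.61 ± 0.863 CPM. Ikbkb, a kinase of the NF-kB pathway, rose from 46.3 ± 1.28 to 72.3 ± 3.87 CPM and the ubiquitin ligase Traf6 fell from 56.6 ± 3.81 to 33.8 ± 2.22 CPM. Around Ikbkb and Traf6 the 20 nearest tested genes had median log2 fold changes of 0.59 and -0.48, beside 0.64 ± 0.05 and -0.74 ± 0.07 for the genes themselves. Tbk1, the kinase that phosphorylates IRF3, was at 57.0 ± 1.64 against 57.1 ± 4.66 CPM (adjusted p = 0.956; named after its values were seen).

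Of 14 interferon receptor and JAK-STAT genes, which feed Irf9 and Irf1, 5 rose and 4 fell, beside 23.6% of all tested genes in each direction (9 rose with library sizes alone and 8 with upper-quartile scaling). Usp18, an inhibitor of the type I interferon receptor, rose from 1.4 ± 0.372 to 5.66 ± 0.453 CPM. The 4 that fell were the receptor genes Ifnar1, Ifnar2, Ifngr2 and Il10rb, all on chromosome 16. Ifnar1 and Il10rb fell by log2 fold changes of -0.95 ± 0.06 and -1.34 ± 0.12. The 20 nearest tested genes of each of the 4 had median log2 fold changes from -1.14 to -1.12, so these calls are not separate from their region. No listed gene elsewhere fell. Among 12 tested partner factors and cofactors 4 rose and 5 fell, against the same 23.6% each way over all tested genes. With library sizes alone 2 fell, and without knockout replicate 3 or wild-type replicate 2, 3 or 4 it was 3; without wild-type replicate 3, 2 rose. The corepressor gene Irf2bp2, whose product binds IRF2, fell from 77.8 ± 1.32 to 60.8 ± 2.77 CPM, and the acetyltransferase gene Ep300 fell from 257 ± 3.74 to 176.8 ± 28.5 CPM. Bcl6, a repressor that opposes IRF4 in B cells, rose from 7.04 ± 0.785 to 12.8 ± 0.88 CPM and the acetyltransferase gene Kat2b from 29.6 ± 3.21 to 44.1 ± 3.51 CPM.

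Genes whose products modify IRF proteins were called in both directions: 4 of 11 rose and 3 fell, where 23.6% of all tested genes rose and 23.6% fell. Trim21, a ubiquitin ligase for several IRFs, rose from 1.41 ± 0.483 to 5.96 ± 0.84 CPM, and Tnfaip3, a brake on innate signaling, from 2.66 ± 0.239 to 5.87 ± 0.228 CPM. Rbck1, a ubiquitin ligase subunit linked to IRF3 turnover, fell from 163.9 ± 7.65 to 104.3 ± 3.63 CPM (log2 fold change -0.65, with a median of -0.57 over its 20 neighbors). Trim28 fell from 877.2 ± 17.1 to 711.7 ± 11.2 CPM.

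Most of the listed genes downstream of the family rose. Of 22 tested target genes of IRF1 and IRF2, 18 rose and 1 fell, against 23.6% of all tested genes that rose and 23.6% that fell, and their median log2 fold change was 2.23. Nlrc5, which switches on MHC class I genes, rose from 2.82 ± 0.403 to 31.8 ± 1.88 CPM and Vcam1, an adhesion molecule, from 5.71 ± 0.627 to 29.2 ± 1.78 CPM. The peptide loading genes Tap2 and Tapbp rose by log2 fold changes of 3.05 ± 0.17 and 0.73 ± 0.04. Ptgs2 was the one that fell (43.7 ± 5.09 against 51.4 ± 3.78 CPM, adjusted p = 0.032), a call lost under 12 of the 18 alternatives, 6 of which left out a library. Another list, drawn up by name and not by a promoter search, held 32 tested genes described as driven by interferon-stimulated response elements. Of these 24 rose and 2, Adar and Trim25, fell, against the same 23.6% each way, with a median of 1.32. With library sizes alone none of them fell. Nor did any without knockout replicate 1, 3 or 4 or wild-type replicate 2 or 4, and 1 did without wild-type replicate 1. The number that rose went from 24 to 20 without wild-type replicate 4 and to 26 with library sizes alone. Some rises were also lost: Ifit3 under 10 of 17 alternatives, Mx1 under 9 of 16 and Oas3 under 5 of 18. Among the IRF1 and IRF2 targets Il15 lost its call under 6 of 17. The calls of Parp9, Parp14 and Lgals3bp held under all 18. Parp9 rose by 1.80 ± 0.11 and Parp14 by 2.92 ± 0.20 on the log2 scale, and Lgals3bp went from 7.72 ± 0.922 to 23.3 ± 1.67 CPM. These lists were chosen with results of these data known, and their counts are not independent evidence of a direction. Several genes that rose were near 0 in the wild type and had enough counts for the test only through the knockout. Examples, knockout against wild type, are Psmb9 (0.623 against 0.00397 CPM), Nos2 (0.533 against 0.0163 CPM), Ciita (0.349 against 0.0189 CPM) and Oas1g (1.13 against 0.0671 CPM). Such genes could be counted only as rises, and they also enter the medians. Some genes, such as Tlr3 and Usp18, stand in more than one list. Of 8 fibroblast and stellate cell markers 6 were tested and 5 of these rose, against 23.6% of all tested genes. Pdgfrb did not pass (0.0547 ± 0.109 against 0.186 ± 0.0623 CPM), Lum had 0 counts and Dcn was too low to be tested. The rise of Col1a1 was lost under 9 of 17 alternatives. The summed level of the 8 was 431 to 463 CPM in the knockout against 108 to 117 CPM in the wild type. Most of that sum was Col3a1, a collagen gene, at a mean of 429 against 107 CPM. The part of these markers in the list results was not tested.

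**Figure D4:**
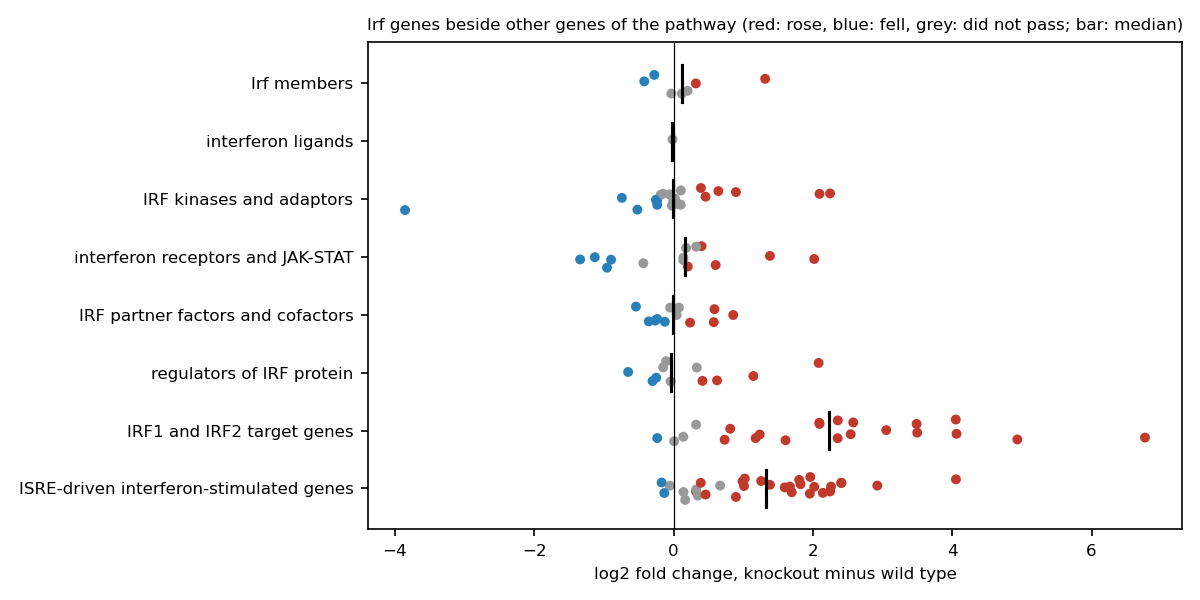
Log2 fold change (knockout minus wild type) of the 7 tested Irf members and of the tested genes of 7 other lists, each point a gene and each bar a list's median. The 2 lists of target genes have medians of 2.23 and 1.32, while the medians of the other lists lie between -0.04 and 0.16. Both target lists include genes near 0 in the wild type that entered the test only through the knockout.

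The genes around each called member had medians near 0. For Irf1, Irf3 and Irf8 the 20 nearest tested genes had median log2 fold changes of -0.04, -0.02 and -0.09, and for Irf7 0.11. Taking the median out left 0.36 for Irf1, -0.26 for Irf3, -0.33 for Irf8 and 1.21 for Irf7. A median near 0 does not mean that each neighbor was unchanged. Of the 20 around Irf8, 3 rose and 6 fell, beside 23.6% of all tested genes each way. Those that fell included the nearest genes after Irf8, at -0.40, -0.59, -0.16 and -1.30. For the members that did not pass, the neighbor medians were -0.02 (Irf2), -0.12 (Irf5) and 0.01 (Irf9).

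**Figure D5:**
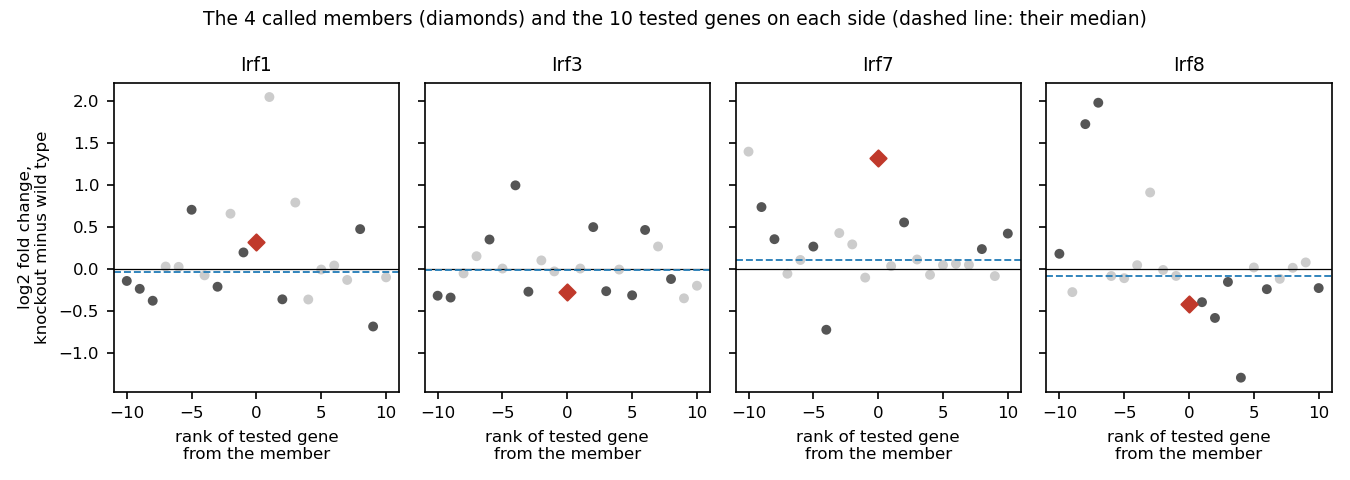
Log2 fold change of the 4 called members (red diamonds) and of the 10 tested genes on each side, by rank along the chromosome, dark where the adjusted p was under 0.05. The dashed lines, at the neighbors' medians of -0.04, -0.02, 0.11 and -0.09, lie near 0 in each panel.

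The genes with the most similar pattern were sought over the 8 libraries, by Euclidean distance of log2 CPM centred on each gene's mean, among 11037 named genes with at least 1 CPM. Closest to Irf1 were Calcoco1 (distance 0.097) and Id3 (0.108), at 17.7 ± 1.23 against 14.5 ± 0.33 and 192.6 ± 10.1 against 154.7 ± 3.89 CPM. Nearest to Irf3 were Bysl (0.03) and Pim3 (0.088), and nearest to Irf8 were Pelp1 (0.104) and Hdac5 (0.122). Many genes were about as near: the distance of the hundredth gene was 0.204 for Irf1, 0.187 for Irf3 and 0.215 for Irf8. Irf7, under 1 CPM, was not entered.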

How the data were processed

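Poly-A RNA of 8 libraries was sequenced by the authors. FastQC, HISAT2, Trimmomatic and the build GRCm38.p6 are listed, per the submitters' processing notes, with no tool versions or roles. How reads were counted, by which tool and annotation and with or without strand, is not given in the sources used here. In the deposited table are estimated counts per transcript, whole numbers that are not normalized, per the file headers and values. Of 115220 transcripts 99.23% matched GENCODE mouse release 21 and were summed to 47434 genes. The unmatched ones held 0.148% to 0.17% of a library's counts. Reads of overlapping genes may be shared. Floors cover counting error only. The intervals are built from the SE of the edgeR fit and so also hold the spread between the libraries. No 2 libraries of 1 group were alike within counting noise (lowest chi-square over its degrees of freedom 10.9), and each was counted as 1 replicate.

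The test was edgeR's quasi-likelihood test (edgeR 4.0.16, R 4.3.3), with TMM, filterByExpr, genotype as the only term, two-sided, and Benjamini-Hochberg adjustment over all genes or transcripts tested. Every adjusted p in the text comes from it unless another test is named. The SE of a log2 fold change is its size over the root of the F statistic. "Rose" and "fell" mean an adjusted p under 0.05. Ratios were compared with exact permutation tests. Named are all members, up to 4 called genes per list with the lowest p, and 2 nearest genes for each called member with at least 1 CPM. Other genes, such as Tbk1, Stat2, Ptgs2, Phrf1 or marker genes at 0, were named after their values were seen. Members and lists were chosen with earlier results of these data known. 1 further family member is not reported here. The code was tested on simulated data. The alternatives were DESeq2 1.42.0, limma-voom (limma 3.58.1), other scalings and filters, protein-coding transcripts only, a test against 1.5-fold, a replicate block and each library left out.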

Additional observations from a re-analysis of the deposited data

Results flagged for a closer look

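Groups of 4 libraries were searched for 1 library far from the other 3, in 26 groups of member levels and ratios, where chance alone flags about 1 in 20. Irf7 in wild-type replicate 1 was at 0.653 CPM while the other wild-type libraries lay between 0.197 and 0.238 CPM. The ratio of Irf7 to Irf3 in the same library was 0.0119, against 0.00446 to 0.00518 in the others. This ratio uses the same Irf7 counts and is not a separate flag. Irf4 had counts in 1 wild-type library only, at 0.058 CPM, where the other 3 were at 0. A group with counts in 1 library only is always flagged, so the rate of 1 in 20 does not apply to it.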

How the results depend on the processing

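The calls of Irf1, Irf3 and Irf8 held under 17 of 18 alternatives and that of Irf7 under 16 of 17. The exception was the test against a 1.5-fold change, which asks for a larger effect. There 0 members rose and 0 fell (log2 fold changes 0.32, -0.28, 1.31 and -0.42 for Irf1, Irf3, Irf7 and Irf8). Of all 15840 genes tested 1191 rose and 465 fell there. Of 106 tested genes of the 7 pathway lists, each counted once, 37 rose and 6 fell, against 56 and 21 in the main test. With only genes of at least 5 CPM, 1 member rose, since Irf7 was not tested. Irf5 changed sign with library sizes alone (0.047) and upper-quartile scaling (0.026), and lay between -0.10 and 0.11 with a library left out. Family transcripts called numbered 0 to 1 higher and 0 to 2 lower with a library left out. Same-numbered libraries showed little shared deviation (correlations -0.023 to 0.075), so no pairing by number was visible. The labels do not say whether the numbers pair the libraries. With a replicate block 3643 genes rose and 3612 fell, all member calls were kept, and 0 transcripts rose and 0 fell. With the longest transcript as length, wild-type and knockout TPM were 18.5 and 24.2 for Irf1, 13.3 and 15.2 for Irf2, 54.0 and 46.7 for Irf3, and 4.39 and 5.30 for Irf9. Irf5 was then at 4.13 TPM in the wild type, Irf7 at 0.233 in the wild type and 0.604 in the knockout, and Irf8 at 26.3 TPM in the knockout. The 9 target genes of IRF1 and IRF2 that rose at 5 CPM or more, against 18, come from fewer genes tested. Depth limits Irf4 and Irf7 most.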

Other observations

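Promoter letters were also set beside the expression of other genes, a comparison added after the data were seen and given with no test. Of 10658 tested genes with a RefSeq promoter, members of the family left out, 26.1% rose and 27.3% fell. Among the 384 whose 300-base promoter window holds the response element core (GAAA, any 2 bases, GAAA), 37% rose and 22.4% fell, with a median log2 fold change of 0.07. Among the 880 with the gamma-activated sequence (TTC, any 3 bases, GAA) 27.4% rose and 26.4% fell, and among the 218 with the NF-kB letters (GGG, any 2 bases, TTTCC) 27.5% rose and 29.4% fell. A match of letters is not a bound site.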
